A study of Mus musculus with 6 samples.

Results

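The EMT transcription factors are the proteins best known for driving the epithelial-to-mesenchymal transition (EMT). They were examined here in mouse embryonic fibroblasts (MEF) on day 3 of reprogramming to induced pluripotent stem cells. The group was defined by name, as Snai1, Snai2, Twist1, Twist2, Zeb1, Zeb2, Foxc1 and Foxc2, and not by a cut on expression values. It was chosen with earlier results of these data known. Of these 8 genes, 7 had a row among the 16982 genes of the count table and all 7 passed the filter on low counts, which left 13386 genes. Foxc2 was not analysed here.

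RNA-seq was compared between 3 WT (wild type, Rnf20+/+) and 3 Rnf20-/- (knockout) cultures of C57BL/6 reprogrammable cells, all harvested on day 3 and all labelled untreated. Every culture carried the retroviral factors OCT4, SOX2, KLF4 and C-MYC (OSKM). The knockout was made in Rnf20 Flox/Flox MEF with a ubiquitously expressed, tamoxifen-inducible Cre by adding 4-OH tamoxifen to the medium, and whether the WT cultures carried the Cre or received 4-OH tamoxifen was not given in the sources used here. Infected cells were replated on mitomycin-C-treated MEF feeder layers, and whether feeder cells were part of the harvested RNA was not given either. RNF20 is an E3 ligase that monoubiquitinates histone H2B.

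Library totals ranged from 20545442 to 21746898 counts, so that 3 counts corresponded to 0.142 to 0.143 CPM (each count scaled to a common library size after TMM, edgeR's trimmed-mean scaling). Rnf20 was 107, 107 and 106 CPM in WT and 18.7, 18.5 and 16.4 CPM in the knockout, although these counts cover the whole gene and the excised exons cannot be told apart in them. Nothing in the sources used here says that the replicates were separate embryos, so p-values measure only the spread between these samples. Knockout replicate 3 stood apart from the other libraries. A chi-square of counts per gene was 92.4 and 101 between it and knockout replicates 1 and 2, against 8.57 between those 2 libraries and 6.04 to 8.92 between WT libraries. The Y-linked gene Ddx3y had 0 counts in knockout replicates 1 and 3, which allows up to 0.143 CPM by counting error alone, and 94.4 to 128 CPM in the other libraries. Eif2s3y, Kdm5d and Uty, also Y-linked, had 0 to 1 counts in the same 2 libraries. Y-linked transcripts were thus present in 3 of 3 WT and 1 of 3 knockout libraries, so the sex of the cells differed between the genotypes to this extent. Knockout replicate 2 also differed in this from replicates 1 and 3, so the knockout cultures were not all from the same embryo. The part of sex in the results was not tested. Results that turned on knockout replicate 3 are given with and without it. Of 10 fibroblast markers, summed expression was 21770 to 23460 CPM in WT and 15870 to 26160 CPM in the knockout, with Col1a1 at 7067 CPM or more in every library. Thy1, Pdgfra and Fap were the 3 of these markers called lower by edgeR's quasi-likelihood test at an adjusted p under 0.05. Of all genes tested 16.6% were called lower, and 0 of these markers were called higher. Lum was not called (adjusted p = 0.119), although all its knockout libraries lay below all WT libraries. Of 12 macrophage markers, 0 passed edgeR's quasi-likelihood test in either direction, adjusted or at an unadjusted p under 0.05, and their sum was 66.9 to 142 CPM in WT and 70.8 to 269 CPM in the knockout, highest in replicate 3.

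In EMT, epithelial cells lose their junctions and polarity and take on fibroblast-like features. SNAI1 and SNAI2 are zinc finger repressors, and ZEB1 and ZEB2 pair zinc finger clusters with a homeodomain. Both families bind the E-box CACCTG in the promoters of epithelial genes such as Cdh1. TWIST1 and TWIST2 are basic helix-loop-helix proteins that bind E-boxes as dimers with E proteins, and FOXC1 and FOXC2 are forkhead factors of mesenchymal and mesodermal tissues. Fibroblasts express many of these factors, and their repression accompanies the mesenchymal-to-epithelial transition (MET) that opens OSKM reprogramming. The comparison asks whether loss of Rnf20 left these factors at other levels than in WT cells at this early stage.

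Of the 7 factors, Foxc1 was higher in Rnf20-/- cells and the other 6 did not pass the test. The call used for the factors required an adjusted p under 0.05, whatever the size of the change, in edgeR's quasi-likelihood test, with adjustment by Benjamini-Hochberg over all 13386 genes. By this rule 1 of 7 factors was called higher, which is 14.3%, and 0 were called lower. Of all genes tested, 33.0% were called, 16.4% higher and 16.6% lower. A share of 1 in 7 was therefore not above the background. At an unadjusted p under 0.05 the count was also 1 higher and 0 lower. The share of all genes at that limit was not computed, but it cannot be below the 33.0% called after adjustment. This count too was therefore not above the background. DESeq2 and the edgeR exact test gave the same 2 counts, beside 38.2% and 33.1% of all genes called. Log2 fold changes were above 0 for 5 factors and below 0 for 2, with a median of 0.13 against -0.00032 over all genes tested.

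**Figure D1:**
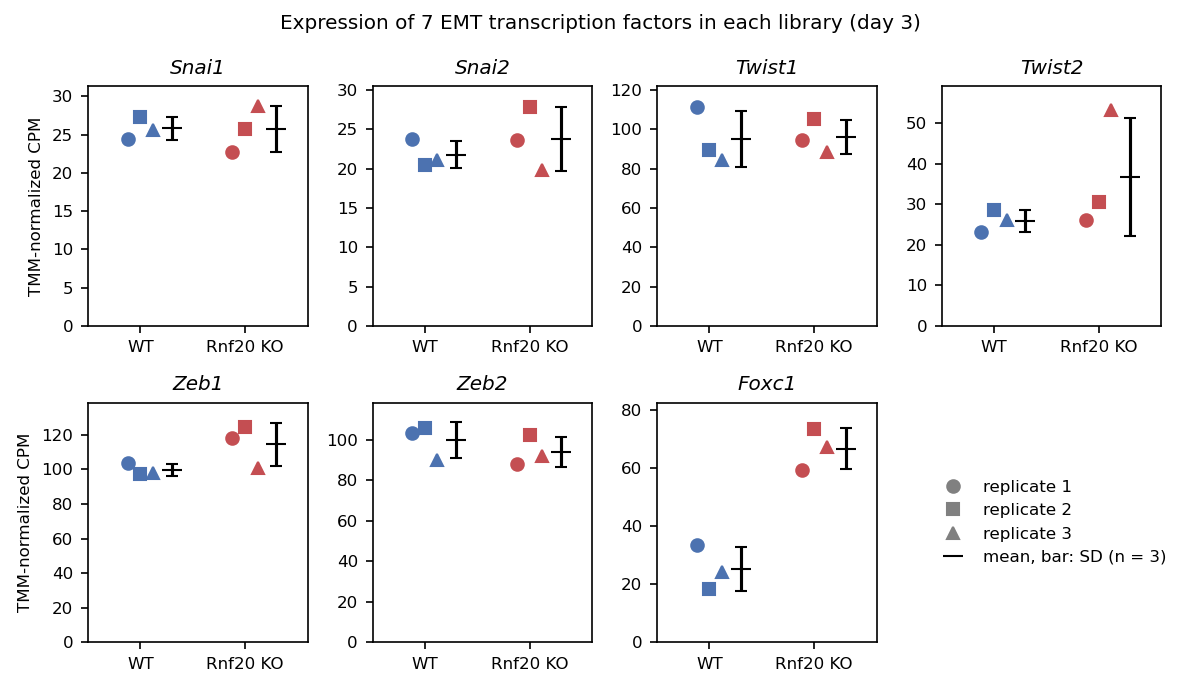
TMM-normalized CPM of each factor by genotype, with 1 symbol per library and the mean and SD (n = 3) beside each group; every axis starts at 0. Foxc1 was the factor whose libraries separated widely, with 18.3 to 33.4 CPM in WT and 59.5 to 73.5 CPM in the knockout, and knockout replicate 3 stood alone for Twist2 at 53.3 CPM.

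Foxc1, a forkhead factor needed for the development of mesenchyme of the head, heart and eye, was 33.4, 18.3 and 24.2 CPM in WT replicates 1 to 3. In the knockout it was 59.5, 73.5 and 67.2 CPM. All 3 knockout libraries lay above all 3 WT libraries, and the lowest knockout value was 1.78 times the highest WT value. Libraries of the genotypes did not overlap for 54.8% of all genes tested. The log2 fold change was 1.40 (SE 0.215, 95% interval 0.89 to 1.91), a 2.64-fold higher level with an interval of 1.85 to 3.77, at an adjusted p of 0.00670 by the quasi-likelihood test. Spread within WT was wide, since its highest library was 1.83 times its lowest. The 3 knockout libraries were 2.35, 2.91 and 2.66 times the WT mean, the highest being replicate 2, the knockout library with Y-linked counts.

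Foxc1 was also the only factor past the thresholds stated by the study, an adjusted p under 0.01 with a fold over 2 and an FPKM over 1, here read as a mean FPKM in WT or knockout. These thresholds held for 3.59% of all genes tested, 1.50% higher and 2.08% lower. A larger log2 fold change than that of Foxc1 was measured for 463 tested genes, of which 361 were called. The call held when any 1 library was left out, with log2 fold changes of 1.21 without WT replicate 2 to 1.65 without WT replicate 1 and adjusted p-values of 0.000202 to 0.0426. At the stricter limit of 0.01, passed by 9.88% of all genes and by 4.98% with a higher level, Foxc1 was again the 1 factor called. This limit held without knockout replicate 3 and was missed without each of the other 5 libraries, at adjusted p-values of 0.0173, 0.0282 and 0.0426 without WT replicates 1, 2 and 3 and of 0.0142 and 0.0206 without knockout replicates 1 and 2.

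Foxc1 lies on chromosome 13 from 31806633 to 31812476 on the forward strand (GRCm38, GENCODE M21) and has 1 annotated transcript. The nearest genes with a row did not pass the test. Gmds, an enzyme of GDP-fucose synthesis that starts 7103 bases away, had a log2 fold change of 0.05 (adjusted p = 0.660). Foxf2, the forkhead neighbour 175230 bases away on the other side, had one of 0.44 (adjusted p = 0.353) at 1.19 to 2.61 CPM over the 6 libraries. The further forkhead gene of this cluster, Foxq1, was at 0 to 15 counts per library and was not tested. The 250 bases upstream of the start site of Foxc1 are shown because it was the factor that changed (RefSeq, GRCm38.p6, chr13:31806396-31806645, forward strand, 5′ to 3′), and no E-box CACCTG is present on either strand.
Foxc1: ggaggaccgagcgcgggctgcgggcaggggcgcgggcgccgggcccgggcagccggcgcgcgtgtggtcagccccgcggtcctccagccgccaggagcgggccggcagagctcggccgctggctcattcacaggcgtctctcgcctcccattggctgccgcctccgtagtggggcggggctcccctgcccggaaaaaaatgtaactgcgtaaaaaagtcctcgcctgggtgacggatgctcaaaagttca

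Snai1, the zinc finger repressor that silences Cdh1 at the onset of EMT, was 24.4, 27.3 and 25.6 CPM in WT and 22.8, 25.7 and 28.7 CPM in the knockout. The groups overlapped fully, and the log2 fold change was -0.0033 with a 95% interval of -0.26 to 0.26 (adjusted p = 0.982, quasi-likelihood test). The Snai1 gene spans 167538195 to 167542814 of chromosome 2 on the forward strand. Snai2, its paralogue known as Slug, was 23.7, 20.4 and 21.1 CPM in WT and 23.6, 27.8 and 19.8 CPM in the knockout. Knockout replicate 2 was highest and replicate 3 lowest, so that both extremes came from the knockout. Its log2 fold change was 0.13 with an interval of -0.21 to 0.46 (adjusted p = 0.516). Snai2 lies on chromosome 16 from 14705852 to 14709385, forward strand.

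The Snai1 promoter is the only one of the factors' windows with a CACCTG match, and SNAI1 is known to bind its own promoter. Of the 7 factors with a row, 5 were matched by symbol to the RefSeq promoter table (Snai1, Twist1, Twist2, Zeb2 and Foxc1, with 8 windows). The 250 upstream bases of Snai1 are given with the match in capitals, starting 126 bases before the start site (GRCm38.p6, chr2:167537945-167538194, forward strand, 5′ to 3′).
Snai1: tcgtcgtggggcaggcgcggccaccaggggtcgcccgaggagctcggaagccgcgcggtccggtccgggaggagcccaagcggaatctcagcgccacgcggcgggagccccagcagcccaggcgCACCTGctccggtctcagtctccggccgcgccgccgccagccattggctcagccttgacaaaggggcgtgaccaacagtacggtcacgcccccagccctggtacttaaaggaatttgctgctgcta

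Twist1, a regulator of cranial mesenchyme and mesoderm, was 111, 89.4 and 84.4 CPM in WT and 94.7, 105 and 88.3 CPM in the knockout. WT replicate 1 was the highest library and WT replicate 3 the lowest, with the knockout libraries between them. The log2 fold change was 0.016 (interval -0.28 to 0.31, adjusted p = 0.930). Its position is chromosome 12, 33957671 to 33959829, forward strand. Twist2, a close relative active in dermal fibroblasts, was 23.2, 28.6 and 26.1 CPM in WT and 26.3, 30.7 and 53.3 CPM in the knockout. Knockout replicate 3 was 2.05 times the WT mean and 1.74 times the next highest library, while knockout replicate 1 lay within the WT range. The log2 fold change of 0.50 (SE 0.263, interval -0.12 to 1.13, adjusted p = 0.181) fell to 0.14 (adjusted p = 0.323) without that library. The summed macrophage markers were also highest in that library. Of the 12 markers 7 were highest there, such as Lyz2 at 159 CPM against 25.5 to 58.0 CPM elsewhere, and 2 were lowest there, C1qa at 3.71 CPM and Mrc1 at 1.91 CPM. Their part in the Twist2 value was not tested. In bulk RNA, fewer cells of a type and less RNA per cell cannot be told apart. Twist2 spans 91801461 to 91848028 of chromosome 1 on the forward strand, and an antisense gene, Gm29100, overlaps its exons.

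Zeb1, a repressor of Cdh1 and of the miR-200 genes, was 104, 97.0 and 98.0 CPM in WT and 118, 125 and 101 CPM in the knockout. Knockout replicates 1 and 2 lay above all WT libraries and replicate 3 lay within the WT range. With all libraries the log2 fold change was 0.20 (SE 0.094, interval -0.024 to 0.42, adjusted p = 0.144). Without knockout replicate 3 it was 0.29 at an adjusted p of 0.00246, so that 2 of 7 factors were then called higher and 0 lower, beside 23.9% of all genes higher and 24.2% lower in that fit. Zeb1 passed the test in none of the other 11 alternative fits. Zeb2, known for its part in neural crest migration, was 104, 106 and 89.8 CPM in WT and 87.9, 102 and 92.1 CPM in the knockout. The groups overlapped, with a log2 fold change of -0.085 (interval -0.31 to 0.14, adjusted p = 0.518). Zeb2 lies on the reverse strand of chromosome 2 from 44983632 to 45117395, and Zeb1 on the forward strand of chromosome 18. Antisense genes overlap the exons of both (Gm10125 for Zeb1, and Zeb2os and Gm27761 for Zeb2). The libraries were strand-specific but the strand setting of the counting was not given, so reads of these pairs may be mixed.

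**Figure D2:**
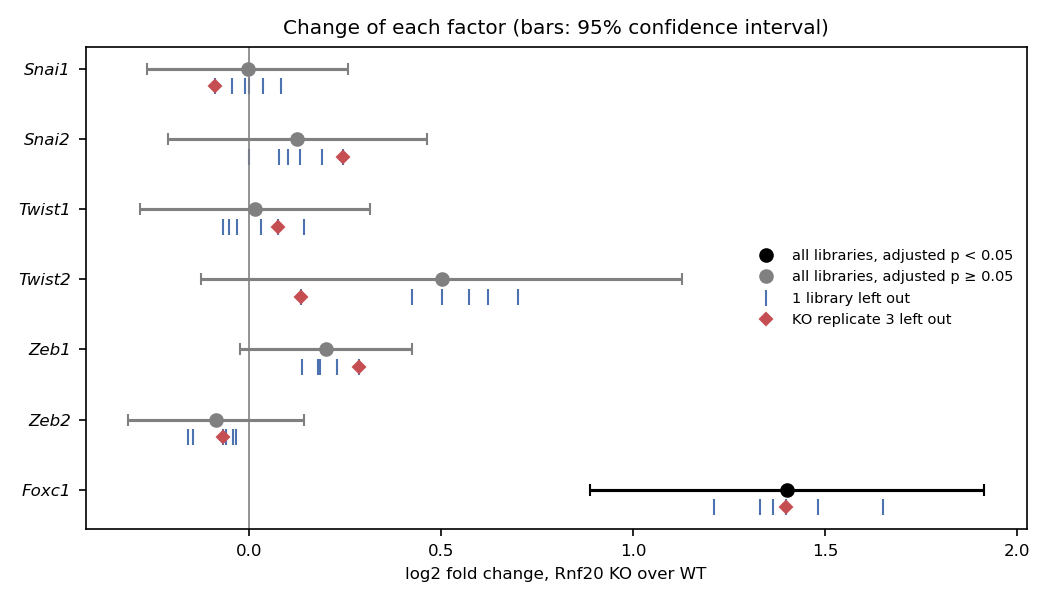
Log2 fold change of Rnf20 knockout over WT for each factor, with the 95% interval as bars, and below it the estimates with 1 library left out (ticks, with a diamond where it was knockout replicate 3). The interval of Foxc1, 0.89 to 1.91, lay above 0, those of the other 6 factors spanned 0, and Twist2 moved from 0.50 to 0.14 without knockout replicate 3.

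Levels were compared between factors on FPKM, read fragments scaled by transcript length and sequencing depth, which the authors computed. Twist1 was the highest of the factors in WT cells at 68.2 ± 8.37 FPKM (SD, n = 3 for this and the following means). Twist2 followed at 29.3 ± 3.61, Zeb2 at 22.3 ± 3.47, Snai1 at 21.2 ± 1.63 and Zeb1 at 17.99 ± 1.09 FPKM. Snai2 at 12.1 ± 1.01 and Foxc1 at 8.05 ± 2.29 FPKM were lowest. Twist1 stood above 90.8% of the 12633 genes with an FPKM value in WT and Foxc1 above 39.2%. In this order Twist2 (25.2 to 32.2 FPKM) overlapped Zeb2 (19.2 to 26.0) and Zeb2 overlapped Snai1 (19.4 to 22.3), so these neighbours did not differ beyond their spread. Zeb1 ranged from 16.9 to 19.0 FPKM, just below Snai1 and above Snai2. Twist1 at 61.9 FPKM or more had no overlap with Twist2 at 32.2 or less, and Foxc1 at 10.5 or less none with Snai2 at 11.2 or more.

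In the knockout Foxc1 moved from the lowest to the third place, at 21.6 ± 2.45 FPKM, and lay between Twist2 (41.9 ± 19.9) and Snai1 (20.4 ± 2.59). Foxc1 (18.9 to 23.4 FPKM), Snai1 (18.1 to 23.2) and Zeb1 (16.6 to 22.0) overlapped in the knockout, so the places among them did not differ beyond their spread. The knockout means of Twist1, Zeb1, Zeb2 and Snai2 were 70.8 ± 3.73, 20.1 ± 3.04, 16.3 ± 2.55 and 12.9 ± 2.59 FPKM. Zeb2 was at 21.6, 19.2 and 26.0 FPKM in WT and 15.5, 19.1 and 14.2 FPKM in the knockout, whereas its counts overlapped. The FPKM values barely separated, the nearest pair being 19.20 in WT replicate 2 and 19.11 in knockout replicate 2. The share of all genes separated in FPKM was not computed. In CPM the genotypes did not overlap for 54.8% of all genes tested, so this separation is not read as a difference. FPKM were not tested here. The order also depended on the length used, since CPM per kilobase of the deposited gene length put Twist1 first at 53.8 and Foxc1 last at 6.40 in WT but put Zeb1 (16.6) and Snai1 (15.9) next. Twist2 then fell to the sixth place at 10.3, with Zeb2 at 10.9 and Snai2 at 10.7. On this scale too Foxc1 took the third place in the knockout, at 16.9.

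**Figure D3:**
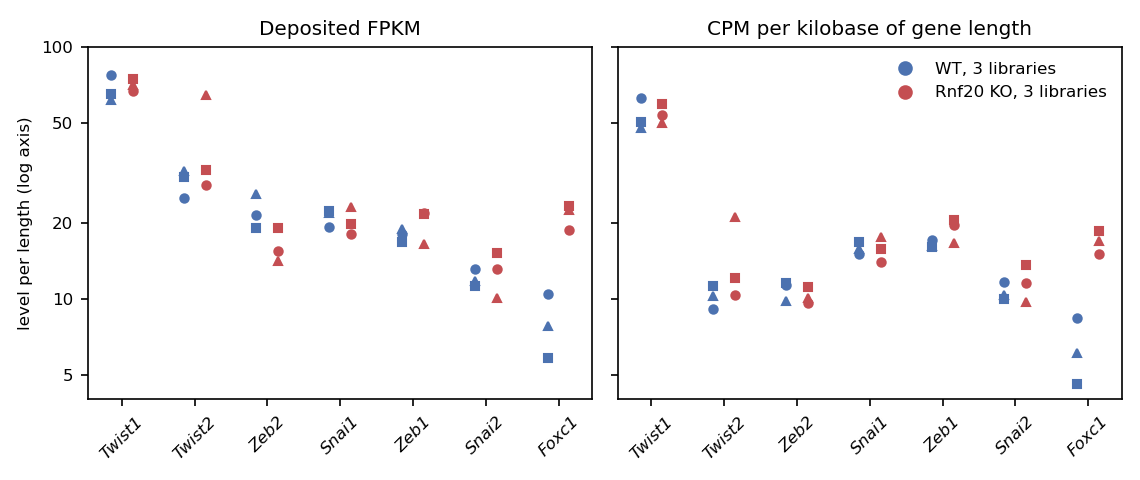
Level of each factor per length in every library, on a log axis, as the deposited FPKM (left) and as CPM per kilobase of the deposited gene length (right), with circles, squares and triangles for replicates 1, 2 and 3. Twist1 was highest on both scales, with a WT mean of 68.2 FPKM, and Foxc1 moved from the lowest place in WT, 8.05 FPKM, to 21.6 FPKM in the knockout.

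Ratios of paralogues within a library do not depend on library scaling. The log2 ratio of Zeb1 to Zeb2 counts was 0.0026, -0.13 and 0.13 in WT and 0.42, 0.28 and 0.13 in the knockout. All knockout values lay above the WT values, the nearest pair being 0.125 and 0.129. The difference of means was 0.28, and the exact two-sided permutation test gave p = 0.1, the smallest that 3 against 3 libraries allow, or 0.3 adjusted over 3 pairs. For Snai1 to Snai2 the difference was -0.12 (exact permutation p = 0.7, adjusted 0.7) and for Twist1 to Twist2 it was -0.41 (exact permutation p = 0.6, adjusted 0.7). Groups overlapped for both. Without knockout replicate 3 the Twist1 to Twist2 difference was -0.053. Foxc1 to Foxc2 was not analysed here.

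**Figure D4:**
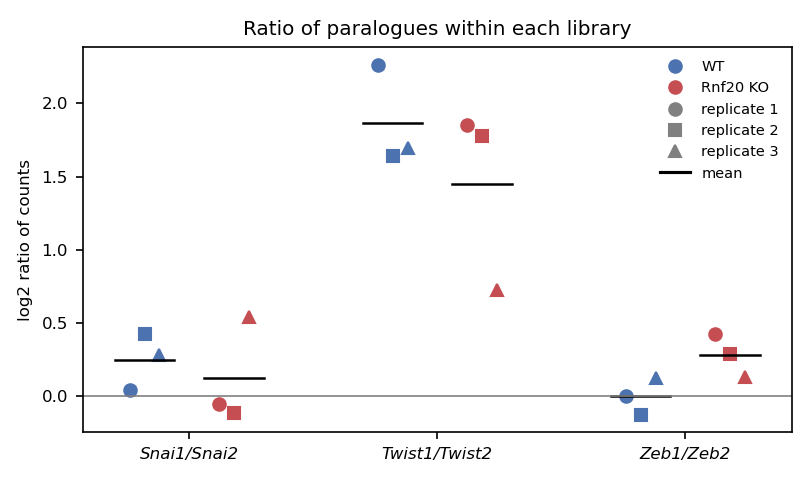
Log2 ratio of counts between paralogues in each library, with the mean of each genotype as a bar. The Zeb1 to Zeb2 ratios of the knockout, 0.13 to 0.42, lay above those of WT, -0.13 to 0.13, and knockout replicate 3 had the lowest Twist1 to Twist2 ratio at 0.73.

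For each factor the gene with the most similar profile was sought among 9519 genes with a mean of 10 CPM or more, by Pearson correlation of log2 CPM over the 6 libraries. These libraries fall into 2 genotypes, 1 library stands apart, and the best of many genes is reported, so r is a description. Foxc1 was followed most closely by Fzd1, a Wnt receptor (r = 0.999), at 118, 91.7 and 102 CPM in WT and 154, 174 and 167 CPM in the knockout. Fzd1 thus shared the low value of WT replicate 2 and the high values of the knockout. Twist2 was closest to Tnfaip2 (r = 0.996), which was 37.3 to 49.6 CPM in WT and 49.3, 59.7 and 166 CPM in the knockout. The most similar genes were Entpd7 for Zeb1 (r = 0.997), Chsy1 for Zeb2 (0.981), Kif26b for Snai2 (0.979), Spata2 for Snai1 (0.976) and Zfp952 for Twist1 (0.920). Among the factors themselves r ran from -0.55 for Snai1 with Snai2 to 0.88 for Snai2 with Zeb1.

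Genes that act with the factors were read from fixed lists, in order of their roles. Among 13 tested genes of 16 other transcription factors linked to EMT, 2 were called higher and 0 lower, with a median log2 fold change of 0.05. This was 15.4% called against 33.0% of all genes. Hmga2, a chromatin protein that induces Snai1 and Twist1 in other systems, rose from 96.4, 81.5 and 84.9 CPM in WT to 170, 140 and 194 CPM in the knockout (log2 fold change 0.94, SE 0.133, adjusted p = 0.00555). Tbx3, a T-box repressor, rose by 0.43 on the log2 scale (adjusted p = 0.0399). Prrx1, which marks limb mesenchyme, had a log2 fold change of 0.05 (adjusted p = 0.714). Sox9, a factor of cartilage, was -0.74 (adjusted p = 0.116) and passed without knockout replicate 3 (-0.42, adjusted p = 0.00865). Without WT replicates 1, 2 and 3 and knockout replicates 1, 2 and 3, in this order, 1, 1, 1, 2, 1 and 3 genes were called higher. Fewer genes of any kind were called without 1 WT library: 14.3%, 11.9% and 10.3% of all genes without WT replicates 1, 2 and 3. Without knockout replicates 1, 2 and 3 the shares were 27.7%, 24% and 48.1%. Counts with 1 library left out, for this list and those below, are to be read beside these shares.

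The dimer partners and inhibitors of TWIST were the list with the lowest median among those read, -0.55 over 8 tested genes of 9, with 4 of 8 called lower and 0 higher, beside 16.6% of all genes lower and 16.4% higher. Tcf3, which encodes the E proteins E12 and E47, was 223, 225 and 243 CPM in WT and 138, 138 and 91.4 CPM in the knockout, and its highest knockout library lay well below every WT library. Its log2 fold change was -0.91 (SE 0.163, adjusted p = 0.00959). Tcf4, another E protein, fell by 0.63 (adjusted p = 0.0114), and Tcf12, the remaining E protein, had -0.046 (adjusted p = 0.807). ID proteins sequester E proteins from DNA. Id2 fell by 0.999 (adjusted p = 0.0204) and Id3 by 0.33 (adjusted p = 0.0168), whereas Id1 was -0.46 (adjusted p = 0.0624) and Id4 0.04 (adjusted p = 0.882). So partners and inhibitors of TWIST were both among the genes that fell. Tcf3 kept its call in all 12 alternatives. Leaving out WT replicates 1, 2 and 3 and knockout replicates 1, 2 and 3 gave 3, 2, 2, 5, 3 and 5 genes called lower.

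The list of corepressors of SNAI and ZEB, which also held Lats2 and Yap1, had 1 gene called higher and 4 lower of 14, with a median of -0.18. The share called was 35.7%, close to the 33.0% of all genes. CTBP1 is the corepressor bound by ZEB proteins, and Ctbp1 fell by 0.35 (adjusted p = 0.0110). Suv39h1, an H3K9 methyltransferase, fell by 0.91 (adjusted p = 0.0155), Ezh2, the H3K27 methyltransferase of PRC2, by 1.28 (adjusted p = 0.0258) and Sin3a by 0.36 (adjusted p = 0.0358). Ezh2 was lowest in knockout replicate 3 at 13.8 CPM, against 33.7 and 34.5 CPM in the other knockout libraries and 63.4 to 68.7 CPM in WT. The gene that rose was Lats2 (0.60, adjusted p = 0.0185), a Hippo kinase reported to phosphorylate SNAI1 and listed for that role rather than as a corepressor. Without WT replicates 1, 2 and 3 the counts were 0 higher and 1, 1 and 0 lower, and without knockout replicates 1, 2 and 3 they were 1, 1 and 3 higher and 4, 3 and 4 lower.

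Genes of the degradation of SNAI, TWIST and ZEB proteins counted 1 higher and 2 lower of 10, with a median of 0.04, and the 30.0% called was near the 33.0% of all genes. Fbxl14, an F-box protein that targets SNAI and TWIST proteins, fell by 0.51 (adjusted p = 0.0178) and Csnk1e by 0.29 (adjusted p = 0.0477). Fbxw11, a beta-TrCP protein, rose by 0.33 (adjusted p = 0.0110). Without each WT library 0 genes were called, and without knockout replicates 1, 2 and 3 the counts were 1, 1 and 4 higher and 1, 1 and 2 lower. Of all genes, 27.7%, 24% and 48.1% were called in the fits without knockout replicates 1, 2 and 3. In the TGF-beta list, the signal that induces many of the factors, 1 of 11 genes was called higher and 0 lower, 9.09% against 33.0% of all genes, with a median of 0.0014. This was Smad7, an inhibitor and target of the pathway, at 28.0, 26.8 and 27.4 CPM in WT and 44.3, 37.5 and 46.5 CPM in the knockout (log2 fold change 0.64, adjusted p = 0.00670), and it kept its call in all 12 alternatives. Without knockout replicate 3 the count was 2 higher and 3 lower, beside 23.9% of all genes higher and 24.2% lower in that fit.

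Epithelial genes that SNAI, ZEB or TWIST repress were largely at low counts, and 16 of 28 were tested, 26 having a row. Of these 3 rose and 2 fell, 31.2% against 33.0% of all genes, with a median of -0.12. Llgl2, a polarity gene, rose by 0.94 (adjusted p = 0.00986), Krt19 by 1.14 (adjusted p = 0.0274) and the serine protease St14 by 0.79 (adjusted p = 0.0284). Cldn3, a tight junction claudin, fell from 3.19, 2.56 and 2.80 CPM to 0.859, 0.617 and 0.429 CPM (log2 fold change -2.16, adjusted p = 0.00614), and Cdh3 (P-cadherin) fell by 1.22 (adjusted p = 0.0244). Cdh1, the E-cadherin gene and best known target, was 9.98, 9.83 and 10.01 CPM in WT and 13.4, 9.40 and 1.81 CPM in the knockout. It did not pass the test (-0.28, adjusted p = 0.740), and its value turned to 0.20 (adjusted p = 0.309) without knockout replicate 3. Without WT replicates 1, 2 and 3 and knockout replicates 1, 2 and 3, the list counted 1, 1, 1, 3, 1 and 5 genes higher and 1, 1, 1, 3, 2 and 4 lower. This list had its median at 0.20 without knockout replicate 3.

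The E-box CACCTG, read on both strands in windows from 250 bases before to 50 after the start site, was present in 19 of 25 windows of this list (76.0%). It was present in 20.2% of all 32851 windows and in 1 of 18 windows of the mesenchymal list (5.56%). The list was composed of known targets, so the match describes the list and not this experiment. Only 18 of the 28 list genes had a window. The 3 genes of the list called higher (Llgl2, Krt19 and St14) had none, nor had Cdh1 and Cdh3, so the counts by E-box leave them out. By gene, 15 of 18 held the E-box, of which 7 were tested, with 0 called higher, 1 lower and a median log2 fold change of -1.09, beside 16.4% of all genes higher and 16.6% lower. Of the 3 genes without the E-box 2 were tested, with 0 called and a median of -0.099. Without knockout replicate 3, 8 genes with the E-box were tested, with 2 called higher (Dsp and Cldn4), 3 lower (Cldn3, Krt8 and Krt18) and a median of -0.56, beside 23.9% higher and 24.2% lower. Cldn4, at 3 counts in each WT library, was not tested with all libraries. It passed the filter here only through knockout replicates 1 and 2. Epcam, an epithelial adhesion protein, and Krt8, a keratin named here after its values were seen, illustrate such promoters. Epcam was 1.19, 0.997 and 1.19 CPM in WT and 0.621, 0.665 and 0.286 CPM in the knockout (-1.09, adjusted p = 0.0671), and its matches start 187 and 19 bases before the start site. Krt8 had 637, 598 and 622 counts in WT and 379, 261 and 15 in the knockout (-1.50, adjusted p = 0.189; without knockout replicate 3, -0.95 and 0.000347), and its match starts 111 bases before the start site. The upstream bases of Epcam (GRCm38.p6, chr17:87635729-87635978, forward strand) and Krt8 (chr15:102004343-102004592, reverse strand) follow, 5′ to 3′ of the gene, with matches in capitals.
Epcam: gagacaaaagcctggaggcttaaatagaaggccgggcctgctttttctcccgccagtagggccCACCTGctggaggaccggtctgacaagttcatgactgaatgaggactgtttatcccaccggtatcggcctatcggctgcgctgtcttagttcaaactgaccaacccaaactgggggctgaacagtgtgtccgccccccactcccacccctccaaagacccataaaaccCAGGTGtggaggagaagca
Krt8: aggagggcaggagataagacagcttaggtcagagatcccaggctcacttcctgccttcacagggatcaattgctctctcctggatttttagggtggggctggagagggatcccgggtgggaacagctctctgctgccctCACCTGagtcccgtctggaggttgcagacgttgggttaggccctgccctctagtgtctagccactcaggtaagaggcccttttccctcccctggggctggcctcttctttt

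Epithelial factors that oppose the EMT factors had 1 gene higher and 3 lower of 7 tested, or 57.1% against 33.0% of all genes, with a median of -0.39. Elf3, an ETS factor of epithelia, was 5.61, 4.89 and 4.41 CPM in WT and 1.96, 2.23 and 0.714 CPM in the knockout (-1.60, adjusted p = 0.0257). Klf4 fell by 0.43 (adjusted p = 0.0176) and Grhl1 by 0.92 (adjusted p = 0.0366). Grhl1, at 16 to 35 counts per library, kept its call in 3 of 12 alternatives and in 0 of those with 1 library left out. Klf4 counts may hold both viral and endogenous transcripts, which were not separated. Foxa1, an endoderm pioneer factor, had 0, 1 and 0 counts in WT and 15, 14 and 11 in the knockout (adjusted p = 0.00681), too few for a fold. It was the gene counted as higher, and it passed the filter on low counts only through the knockout libraries. Esrp1, a splicing factor repressed by ZEB1, had 4, 3 and 6 counts in WT and 2, 1 and 0 in the knockout, and Ovol1 and Ovol2 at most 6 and 1 counts, so none of these was tested. Without WT replicates 1, 2 and 3 and knockout replicates 1, 2 and 3, 1, 0, 0, 2, 1 and 2 genes were called lower.

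Mesenchymal genes linked to the factors had 8 members called higher and 3 lower of 27, or 40.7% against 33.0% of all genes, with a median of 0.28. Cdh2 (N-cadherin) rose from 110, 94.6 and 102 CPM to 163, 153 and 159 CPM (0.63, SE 0.078, adjusted p = 0.00394), with no overlap. Itgb1, the beta-1 integrin, rose by 0.81 (adjusted p = 0.00279) and Acta2, smooth muscle actin, by 1.23 (adjusted p = 0.00394). Sparc, Col5a2, Itga5 and Tnc were among the others that rose. Fap (-1.22, adjusted p = 0.00374), Pdgfra (-1.22, adjusted p = 0.0185) and Cxcl12 (-0.58, adjusted p = 0.0257) fell, and the first 2 are also fibroblast markers. Vim (0.29, adjusted p = 0.0577) and Fn1 (0.56, adjusted p = 0.0697) did not pass, and both passed without knockout replicate 3 (adjusted p = 0.0115 and 0.000212). Leaving out WT replicates 1, 2 and 3 gave 6, 5 and 5 higher and 1 lower each, and leaving out knockout replicates 1, 2 and 3 gave 8, 7 and 12 higher and 2, 2 and 4 lower, the last beside 48.1% of all genes called in that fit.

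The forkhead family beyond Foxc1 and Foxc2 showed no common direction. Of 29 genes with a row 21 were tested, with 3 called higher, 3 lower and a median of 0.02. This was 28.6%, below the 33.0% of all genes. Foxd1, a factor of stromal mesenchyme, was the family member nearest to Foxc1 in its rise among those with more than a few counts. It was 24.1, 13.5 and 15.8 CPM in WT and 33.9, 37.5 and 39.1 CPM in the knockout (1.05, SE 0.212, adjusted p = 0.0137). Its call was lost without WT replicate 3 (adjusted p = 0.0660). Foxo3 rose by 0.29 (adjusted p = 0.0210), and Foxo4 (-0.80, adjusted p = 0.00349), Foxo6 (-1.67, adjusted p = 0.0313) and Foxn3 (-0.32, adjusted p = 0.0400) fell. The remaining gene called higher, Foxa1, was nearly absent in WT and passed the filter on low counts only through the knockout libraries. Leaving out WT replicates 1, 2 and 3 and knockout replicates 1, 2 and 3 gave 2, 2, 1, 2, 3 and 5 genes higher and 1, 1, 1, 3, 1 and 3 lower.

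**Figure D5:**
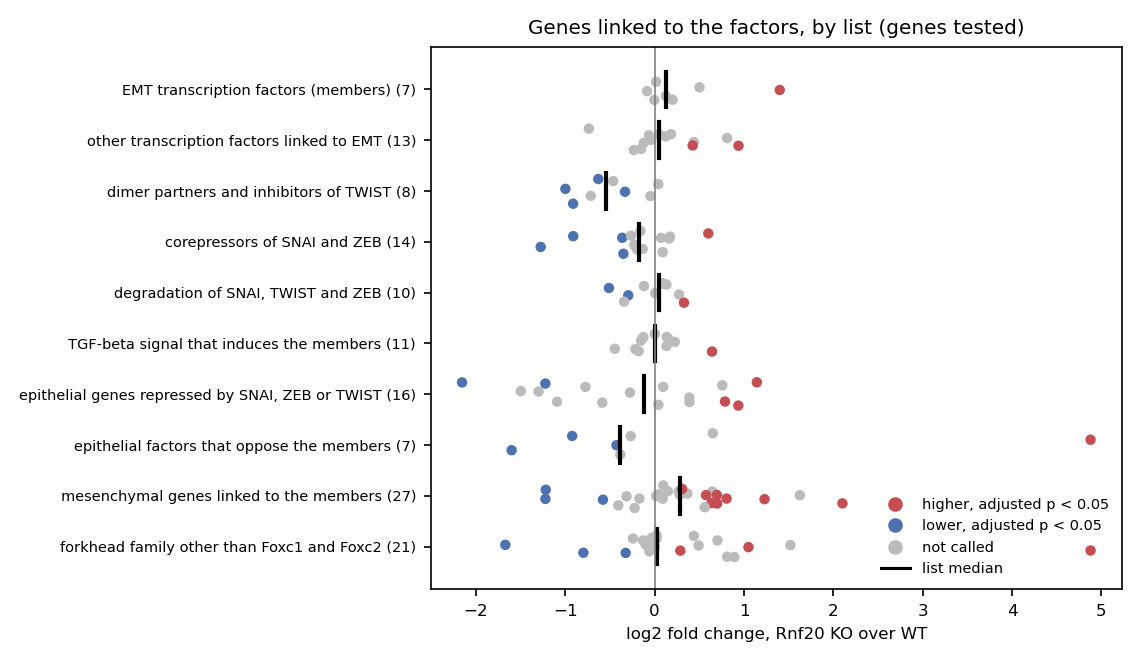
Log2 fold change of each tested gene by list, with genes called higher or lower in colour, other genes in grey and the list median as a black line; the number of genes tested is in parentheses. The factors had a median of 0.13, the TWIST partners and inhibitors one of -0.55 and the mesenchymal genes one of 0.28; Foxa1, at the far right in 2 lists, had 0 to 1 counts in WT.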

How the data were processed

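RNA-seq of 3 WT and 3 Rnf20-/- libraries was analysed, grouped by the labels' genotype, with day 3 taken from the labels. Per the submitters' processing notes and the methods, stranded mRNA libraries were read from both ends and aligned by the authors with HISAT2 2.1.0 against GRCm38/mm10. They deposited raw counts per gene, not normalized, with a gene length in bases, and FPKM that the authors calculated with Cufflinks 2.1.1 for 12633 genes. The counting program and its strand setting are not given in the sources used here. The deposited table also holds the authors' log2 fold changes, FDR values and a second copy of the counts, which were not used.

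Counts were analysed in R 4.3.3 with edgeR 4.0.16 (TMM, filterByExpr, quasi-likelihood test with no covariates, Benjamini-Hochberg adjustment over all genes tested), on the whole table. The common dispersion was 0.0353. The script was tested on simulated data. The study states thresholds but no test, so a call at an adjusted p under 0.05 whatever the size was used here, with 0.01 and the study's thresholds as alternatives. Log2 CPM values used a pseudocount of 2 counts, and paralogue ratios one of 0.5 counts with an exact permutation test over the libraries. Alternatives were RLE factors, total counts only, no filter, DESeq2 1.42.0, the edgeR exact test, the replicate number as a block and each library left out. The named genes were Rnf20, the factors, a fixed set of EMT genes, the 4 tested genes of each list with the lowest adjusted p and the closest profile to each factor. Other genes named in the text were chosen after their values were seen. The factors and lists were chosen with earlier results of these data known. Promoter sequences are from RefSeq (GRCm38.p6) and positions from GENCODE M21. Intervals of the log2 fold changes came from the quasi-likelihood fit and include the spread between these libraries. Floors of 3 counts cover counting error only. A mesenchymal gene is counted in its list but not reported here by name.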

Additional observations from a re-analysis of the deposited data

How the results depend on the processing

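The number of factors called higher was 1 under every alternative run except without knockout replicate 3, where it was 2 (range over libraries left out 1 to 2), and the number called lower was 0 throughout. Snai1 changed sign with RLE factors and with DESeq2 (0.0054 each) and without WT replicate 2 (0.037) or knockout replicates 1 (0.083) or 2 (0.0013), within a range of -0.088 to 0.083 over libraries left out. Twist1 changed sign with total counts only (-0.046) and without WT replicates 2 (-0.030) or 3 (-0.066) or knockout replicate 2 (-0.051), within a range of -0.066 to 0.14. Neither was ever called. Without knockout replicate 3, Cdh1 turned to 0.20 and Tcf12 to 0.094, neither called. Over the libraries left out Cdh1 ranged from -0.82 to 0.20 and Tcf12 from -0.15 to 0.094. Total counts only called 1750 genes higher and 2684 lower, against 2195 and 2218, with a median log2 fold change of all genes of -0.060. The cause was not tested. No pairing by replicate number was seen. Deviations of same-numbered libraries correlated at -0.066, 0.037 and 0.011, and 1 of 3 WT libraries correlated best with its own number. Because knockout replicate 3 stood apart, these correlations cannot exclude a pairing. With the replicate block, Foxc1 was 1.43 (adjusted p = 0.0267) and remained the only factor called, while 21.5% of all genes were called. The paralogue differences of -0.12, -0.41 and 0.28 were then read by an exact sign-flip test of the differences between same-numbered libraries. That test gave p-values of 0.75, 0.5 and 0.25, and 0.25 is the smallest that 3 pairs allow. Counts of the 7 factors, 385 or more in every library, were well above the floor of 3 counts. The part of depth in their results was not tested.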
